A study of Mus musculus with 10 samples.

Results

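The genes described here lie on mouse chromosome 7 between *Homer2* and *Apbb1*, the gene of the adaptor protein FE65. They come from a list of 57 genes of that stretch. Of these, 42 genes had a probe set annotated to them alone, with 67 probe sets in all. Over the array, 12393 genes had such a probe set. The other 15 (*Me3*, *Picalm*, *Nars2*, *Alg8*, *Rsf1*, *Pak1*, *Acer3*, *Tsku*, *Slco2b1*, *Pgm2l1*, *Ucp2*, *Paaf1*, *Fam168a*, *Relt* and *Fchsd2*) had none in the annotation used and were not analysed here. RNA from the cerebral cortex of 10 male mice, 6 months of age, was hybridised to Affymetrix mouse expression arrays, 1 per mouse. Of these, 5 carried the label *p97FE65* null and 5 the label wild type. In null mice the exon with the first start codon is skipped in splicing, so that the full-length FE65 protein is not made. The null allele was produced in R1 embryonic stem cells, which derive from strain 129/Sv. Both groups came from a line crossed back to C57Bl/6J for 10 generations, as littermates.

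A targeted allele is carried through backcrossing together with the stretch of chromosome around it, since selection for the allele also keeps what is linked to it. Genes beside the target can therefore be of donor strain in the mutants and of recipient strain in their wild type littermates. A short-oligonucleotide array reads each transcript through small sets of probes, and a base difference between strains under a probe can lower its signal without any change in the amount of RNA. Several probe sets for one gene sample different places of its transcripts.

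Differences are given as labelled null minus labelled wild type on the log2 scale, in which 1 unit is a doubling of signal. Under these labels the direction is opposite to that of the study's own tables, in which *Myo7a* and *Hdgfl3* are listed as lower in null mice and *Gprc5b*, *Iqgap1* and *Thrsp* as higher. It is also opposite to the study's RT-PCR of *Gprc5b*, a measurement apart from the arrays, in the region read by one of its probe sets. That probe set, 1451411_at, read 6.92, 4.71, 6.595, 6.05 and 6.53 on labelled null arrays and 7.61, 7.09, 7.74, 7.07 and 7.45 on labelled wild type arrays. Every labelled null array lay below every labelled wild type array, with a difference of -1.23 ± 0.36 (SE). The array values alone do not settle which genotype each label stands for, and exchange of the labels would turn every sign given here. The skipped exon lies near the start of *Apbb1*, while arrays of this design read transcripts toward their far end. The probe sets of *Apbb1* therefore give no check of the labels through the missing exon. The study printed 1423892_at and 1423893_x_at as 1.08-fold and 1.19-fold lower in null mice. Here they had the same fold sizes but were higher under the label null. Medians of the arrays ranged from 3.01 to 3.14, and arrays correlated with each other at 0.994 to 0.999. Among cell type markers, 5 of neurons averaged 10.8 in labelled null and 10.9 in labelled wild type cortex, and 6 of astrocytes 9.42 in each. Choroid plexus markers averaged 3.50 in labelled null and 3.53 in labelled wild type cortex. Microglial markers averaged 5.94 in each, and endothelial markers 4.71 in labelled null and 4.74 in labelled wild type cortex. The lists further apart were myelin, at 9.47 in labelled null and 9.71 in labelled wild type cortex, and striatum, at 4.34 and 4.53. Probe sets differ in affinity, so these levels compare the groups within a list and not one list with another. In bulk cortex, fewer cells of a type and less RNA per cell cannot be told apart.

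Promoter windows are shown for the genes with the lowest p-values below, since these differed between the groups in the same direction. They run from 250 bases before to 50 bases after a transcript start, from RefSeq on build GRCm38.p6, which held windows for 35 of the 42 genes. *Sytl2*, the remaining gene with a p under 0.004, had no entry. Capitals mark the GC box (GGGCGG or CCGCCC) and the CCAAT box (CCAAT or ATTGG), searched on both strands.
Hdgfl3, chr7:81934410-81934709, reverse strand: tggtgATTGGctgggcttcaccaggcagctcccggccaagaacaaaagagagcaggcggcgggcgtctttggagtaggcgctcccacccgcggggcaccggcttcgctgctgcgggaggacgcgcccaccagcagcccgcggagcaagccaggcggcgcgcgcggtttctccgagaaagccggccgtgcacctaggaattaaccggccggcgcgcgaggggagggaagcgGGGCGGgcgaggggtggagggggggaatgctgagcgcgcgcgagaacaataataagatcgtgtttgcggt
Ndufc2, chr7:97399753-97400052, forward strand: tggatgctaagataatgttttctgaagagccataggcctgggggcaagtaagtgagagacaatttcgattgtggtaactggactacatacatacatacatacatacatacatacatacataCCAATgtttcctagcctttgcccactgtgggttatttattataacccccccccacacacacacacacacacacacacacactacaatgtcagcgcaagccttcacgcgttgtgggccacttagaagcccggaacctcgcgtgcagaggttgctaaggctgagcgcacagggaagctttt
Myo7a, chr7:98119444-98119743, reverse strand: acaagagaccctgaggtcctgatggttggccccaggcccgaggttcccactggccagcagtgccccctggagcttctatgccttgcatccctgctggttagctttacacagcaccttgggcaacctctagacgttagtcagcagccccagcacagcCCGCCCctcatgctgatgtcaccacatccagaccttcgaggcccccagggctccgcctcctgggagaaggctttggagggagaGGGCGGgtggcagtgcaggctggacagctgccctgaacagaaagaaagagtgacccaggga
Mrpl48, chr7:100608252-100608551, reverse strand: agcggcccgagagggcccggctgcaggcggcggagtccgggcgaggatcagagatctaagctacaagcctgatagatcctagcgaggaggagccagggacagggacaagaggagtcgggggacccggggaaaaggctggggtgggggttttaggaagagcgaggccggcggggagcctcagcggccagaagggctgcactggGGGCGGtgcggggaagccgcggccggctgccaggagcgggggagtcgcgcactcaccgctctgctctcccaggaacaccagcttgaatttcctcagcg
The *Hdgfl3* window held 1 GC box and 1 CCAAT box, that of *Ndufc2* 1 CCAAT box, that of *Myo7a* 2 GC boxes and that of *Mrpl48* 1 GC box. No motif was shared by all 4 windows, and none held a TATA box (TATAAA or TTTATA). Over all 32851 windows of the reference, 35.7% held a GC box, 37.4% a CCAAT box and 13.6% a TATA box. Over the 60 windows of the genes of the stretch the shares were 61.7%, 35% and 8.33%.

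Most genes of the stretch differed little between the labelled groups, and those that did were nearly all higher in labelled null cortex. At an unadjusted p under 0.05 (the test of limma, fitted over 22626 probe sets), 10 probe sets were higher and 1 was lower, 11 of 67 or 16.4%, against 3.67% of all probe sets. They belonged to 10 genes. Over all probe sets, 1.24% were higher and 2.43% lower by the same rule, a split that depended on the scaling: quantile normalization gave 2.32% higher and 1.86% lower, and 12 higher and 1 lower in the stretch. At a p under 0.004, *Hdgfl3*, *Sytl2*, *Ndufc2*, *Myo7a* and *Mrpl48* remained, 7.46% of the 67 against 0.278% of all probe sets. The list of genes was drawn up with earlier results of these data known, so its counts are not independent evidence. After Benjamini-Hochberg adjustment 0 of 22626 probe sets had a p under 0.05, with limma, and the adjusted p of the 67 probe sets lay between 0.822 and 0.999.

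**Figure D1:**
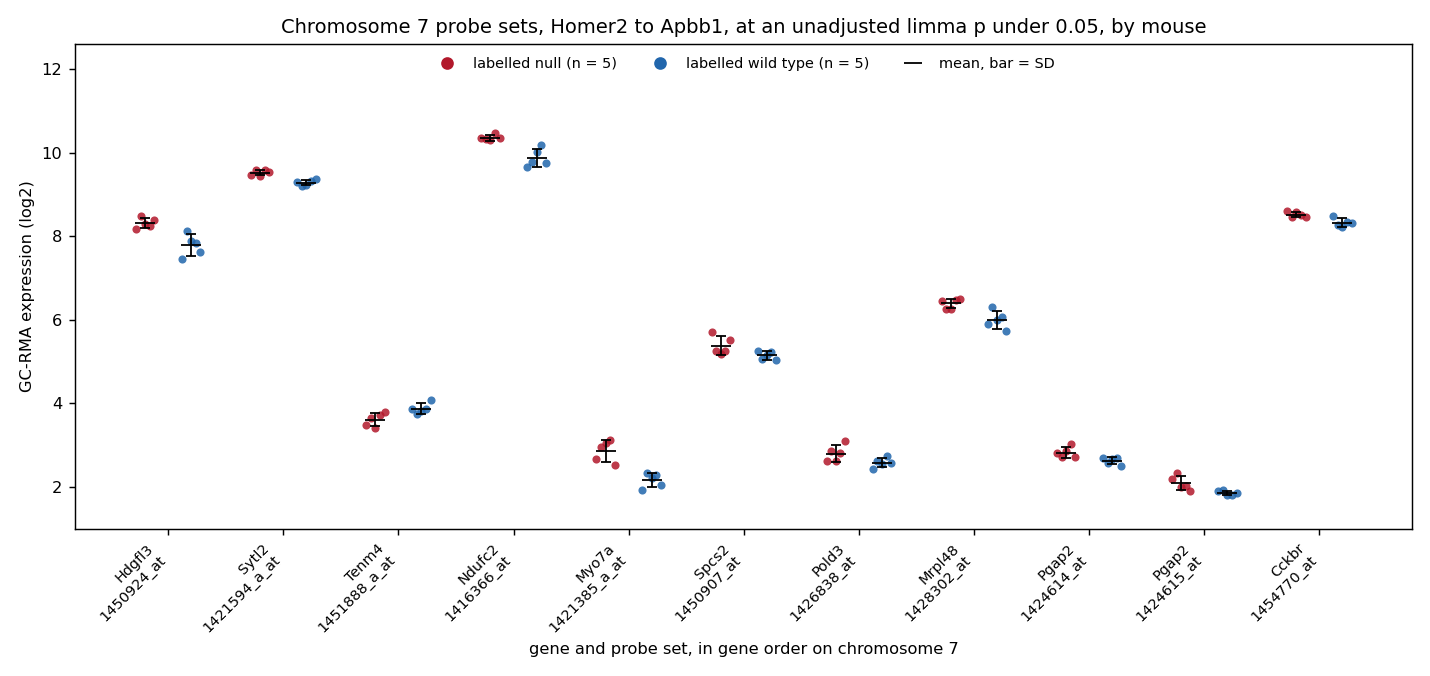
GC-RMA expression (log2, y axis) of the 11 probe sets of the stretch with an unadjusted limma p under 0.05, in gene order, with 1 point per mouse, the mean and the SD, labelled null left of labelled wild type (n = 5 each). The groups are apart in *Hdgfl3*, *Sytl2*, *Ndufc2*, *Myo7a* and 1 probe set of *Pgap2*, and *Tenm4* is the one gene whose labelled null mean lies below its labelled wild type mean.

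In 5 probe sets every labelled null array lay above every labelled wild type array, those of *Hdgfl3*, *Sytl2*, *Ndufc2*, *Myo7a* and *Pgap2* (7.46%, against 0.623% of all probe sets with groups that did not overlap). Without labelled null replicate 5 there were 8 such probe sets (11.9%, against 2.25% of all probe sets), and without labelled wild type replicate 2 there were 9 (13.4%, against 1.64%). Of the 10 higher probe sets, each labelled null array lay above the mean over all arrays in 8 or 9, and each labelled wild type array in 0 to 2. Since these probe sets were picked for their difference, the counts describe only how it was shared among the mice. The typical probe set of the stretch shifted little, with a median difference of 0.01 against 0.00 over all probe sets, and 56.7% of differences were above 0 against 49.8%. The median size of the difference, sign aside, was 0.08 in the stretch and 0.05 over all probe sets.

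Among genes for chromatin, RNA and replication, 7 of 8 listed genes were measured with 15 probe sets, of which 2 were higher and 0 lower. *Hdgfl3* encodes a brain-expressed member of the hepatoma-derived growth factor family with a chromatin-binding PWWP domain. Its probe set 1450924_at read 8.17, 8.48, 8.29, 8.26 and 8.38 on labelled null arrays and 7.46, 8.12, 7.88, 7.85 and 7.63 on labelled wild type arrays. All labelled null values were higher than all labelled wild type values, and the wild type arrays were the more spread out. The difference was 0.53 ± 0.11 (SE), a 1.44-fold change (unadjusted limma p = 0.000832; exact permutation p = 0.00794, two-sided, the smallest p that 5 against 5 arrays allow).

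*Pold3*, an accessory subunit of the replicative DNA polymerase delta, was dim. Its probe set 1426838_at read 2.63, 2.85, 2.61, 2.81 and 3.10 on labelled null arrays and 2.43, 2.62, 2.54, 2.73 and 2.57 on labelled wild type arrays. The groups overlapped, with a difference of 0.22 ± 0.09 (SE; limma p = 0.0399, exact permutation p = 0.0556). The call was lost without labelled null replicate 2 (0.207), 4 (0.217) or 5 (0.144) and without labelled wild type replicate 1 (0.183), 2 (0.23), 3 (0.21) or 5 (0.216). The other 13 probe sets of this group, of *Eed*, *Pcf11*, *Clns1a*, *Nup98*, *Rrm1* and of the remaining regions of *Hdgfl3* and *Pold3*, had differences of -0.15 to 0.37. The upper end was *Rrm1* 1415878_at, for the large subunit of ribonucleotide reductase, just outside the threshold (0.37 ± 0.17 SE, limma p = 0.0542, exact permutation p = 0.103).

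*Clns1a*, whose product takes part in the assembly of spliceosomal particles, was the third brightest gene of the stretch. Its brightest probe set 1436935_x_at read 10.92, 10.88, 11.03, 10.97 and 11.24 on labelled null arrays and 11.05, 11.02, 10.99, 11.18 and 11.08 on labelled wild type arrays. The groups overlapped, and the 95% confidence interval of the difference was -0.21 to 0.10. Its 3 probe sets had differences of -0.15, -0.05 and 0.00.

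Of genes for membrane traffic, cytoskeleton and GTPases, 7 of 9 listed genes were measured with 8 probe sets, of which 2 were higher and 0 lower. *Myo7a* encodes an unconventional myosin best known from the hair cells of the inner ear and from the retina. Its single probe set, 1421385_a_at, read 2.66, 2.96, 3.04, 3.13 and 2.51 on labelled null arrays and 1.93, 2.32, 2.21, 2.27 and 2.05 on labelled wild type arrays. The groups did not overlap, although both were near the bottom of the array's range. The difference of 0.70 ± 0.12 (SE), or 1.63-fold, was the largest of the 67 (unadjusted limma p = 0.000182, exact permutation p = 0.00794).

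*Sytl2* encodes a synaptotagmin-like protein that binds the small GTPase Rab27 and tethers vesicles to the plasma membrane. Its single probe set, 1421594_a_at, read 9.45, 9.58, 9.45, 9.58 and 9.53 on labelled null arrays and 9.29, 9.21, 9.22, 9.32 and 9.36 on labelled wild type arrays. The groups did not overlap, and each spanned a narrow range. The difference was 0.24 ± 0.05 (SE), or 1.18-fold (unadjusted limma p = 0.000472, exact permutation p = 0.00794).

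*Plekhb1*, for a membrane protein with a pleckstrin homology domain, was the second brightest gene of the stretch. Its probe set read 11.58, 11.32, 11.28, 11.38 and 11.49 on labelled null arrays and 11.69, 11.36, 11.44, 11.31 and 11.30 on labelled wild type arrays. The groups lay over each other, with a 95% confidence interval of -0.20 to 0.18 for the difference. The remaining genes of this group, *Uvrag* of autophagy, *Arap1*, *Numa1* of the spindle and the GTPase gene *Rhog*, had differences of -0.09 to 0.06 with *Plekhb1* included.

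Of genes for mitochondria and energy metabolism, 4 of 8 listed genes were measured with 8 probe sets, of which 2 were higher and 0 lower. *Ndufc2* encodes an accessory subunit of respiratory complex I and had the brightest probe set of the stretch. Its second probe set, 1416366_at, read 10.36, 10.32, 10.29, 10.46 and 10.34 on labelled null arrays and 9.645, 9.78, 10.01, 10.19 and 9.76 on labelled wild type arrays. No labelled wild type array reached the lowest labelled null array. The difference was 0.47 ± 0.09 (SE), or 1.39-fold (unadjusted limma p = 0.000466, exact permutation p = 0.00794).

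*Mrpl48* encodes a protein of the large subunit of the mitochondrial ribosome. Its probe set 1428302_at read 6.44, 6.27, 6.26, 6.47 and 6.50 on labelled null arrays and 5.91, 6.31, 6.00, 6.07 and 5.72 on labelled wild type arrays. Only labelled wild type replicate 2 reached into the range of the labelled null arrays. The difference was 0.39 ± 0.10 (SE), or 1.31-fold (unadjusted limma p = 0.00301, exact permutation p = 0.0238). The other 6 probe sets, of *Tmem135*, *Clpb* and the remaining regions of *Ndufc2* and *Mrpl48*, had differences of -0.09 to 0.17.

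Of genes for the secretory pathway, lysosome and proteases, 8 of 10 listed genes were measured with 16 probe sets, of which 3 were higher and 0 lower. *Pgap2* takes part in the remodelling of the lipid part of GPI anchors, by which some proteins are held at the cell surface. Its probe set 1424614_at read 2.81, 2.72, 2.86, 3.01 and 2.70 on labelled null arrays and 2.69, 2.56, 2.68, 2.69 and 2.50 on labelled wild type arrays. Its probe set 1424615_at read 2.19, 2.33, 1.999, 2.02 and 1.91 on labelled null arrays and 1.89, 1.92, 1.80, 1.82 and 1.86 on labelled wild type arrays. Both were dim, and the groups were apart in the first and overlapped in the second. The differences were 0.20 ± 0.07 and 0.23 ± 0.08 (SE; unadjusted limma p = 0.0145 and 0.0122, exact permutation p = 0.00794 and 0.0159).

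*Spcs2* encodes a subunit of the signal peptidase complex of the endoplasmic reticulum. Its dimmer probe set, 1450907_at, read 5.71, 5.26, 5.18, 5.25 and 5.51 on labelled null arrays and 5.25, 5.06, 5.15, 5.23 and 5.03 on labelled wild type arrays. The groups overlapped, with a difference of 0.24 ± 0.10 (SE; unadjusted limma p = 0.038, exact permutation p = 0.0397). The call was lost without labelled null replicate 1 (0.155) or 5 (0.205) and without labelled wild type replicate 2 (0.215), 3 (0.237) or 5 (0.208). The other 13 probe sets of this group, among them those of the lysosomal protease genes *Ctsc* and *Prcp*, the calpain gene *Capn5* and the collagen chaperone gene *Serpinh1*, had differences of -0.16 to 0.12. *Prss23*, for a secreted serine protease, varied most between mice of one group, with pooled SDs of 0.423 and 0.404 for its 2 probe sets against a median of 0.139 over the stretch.

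Of genes for receptors, ligands and signalling, 11 of 14 listed genes were measured with 14 probe sets, of which 1 was higher and 1 lower. *Cckbr* encodes the cholecystokinin B receptor, the main receptor for this neuropeptide in the brain. Its probe set 1454770_at read 8.60, 8.46, 8.58, 8.50 and 8.45 on labelled null arrays and 8.48, 8.27, 8.22, 8.34 and 8.31 on labelled wild type arrays. Labelled wild type replicate 1 lay within the range of the labelled null arrays, and the others lay below it. The difference was 0.19 ± 0.06 (SE), or 1.14-fold (unadjusted limma p = 0.00627, exact permutation p = 0.0238).

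*Tenm4*, for a teneurin, a large transmembrane protein of cell contacts in the developing nervous system, was the one gene that was lower at this threshold. Its single probe set, 1451888_a_at, read 3.48, 3.64, 3.42, 3.73 and 3.80 on labelled null arrays and 3.87, 3.75, 3.81, 3.86 and 4.09 on labelled wild type arrays. Only labelled null replicate 5 reached into the labelled wild type range. The difference was -0.26 ± 0.09 (SE; unadjusted limma p = 0.0114, exact permutation p = 0.0159). With values below 4 set to 4 it was -0.02 and no longer called.

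Myelin markers were also lower in labelled null cortex, with 2 of the 6 measured at a p under 0.05 (*Mbp* -0.23, *Cldn11* -0.52) and none higher. Their mean level per array ranged from 9.26 to 9.68 in labelled null and from 9.50 to 10.17 in labelled wild type cortex. Of 5 neuronal markers, 1 was lower (*Rbfox3*, -0.37) and 0 were higher, while of the astrocyte, microglial, endothelial, choroid plexus and striatal markers 0 passed in either direction. Their part in the difference of *Tenm4* was not tested. The other 12 probe sets of the signalling group had differences of -0.21 to 0.25, among them those of *Fzd4* and *Wnt11* of the Wnt pathway, *Arrb1*, *Pde2a*, *Stim1* and *Inppl1*.

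Of genes for lipid metabolism and transport, 5 of 7 listed genes were measured with 6 probe sets, of which 0 were called. Their differences ran from -0.22 to 0.10, with a median of -0.02. The lower end was *Stard10*, for a phospholipid transfer protein, just outside the threshold (9.40, 9.14, 9.25, 9.35 and 9.44 on labelled null arrays, 9.81, 9.28, 9.71, 9.46 and 9.43 on labelled wild type arrays; -0.22 ± 0.10 SE, limma p = 0.0553, exact permutation p = 0.0952). The sphingomyelinase gene *Smpd1*, the triglyceride synthesis gene *Dgat2*, *Gdpd5* and the sialidase gene *Neu3* were the others.

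Calls were found among both bright and dim probe sets. Means over the 10 arrays ran from 1.29 to 11.5, and 30 of the 67 probe sets had a mean of 5 or more. Of these 30, 6 were called (20%), against 6.44% of all probe sets as bright. The other 5 called probe sets, those of *Tenm4*, *Pold3*, *Myo7a* and *Pgap2*, had means under 4, where GC-RMA signal is close to the floor of the array. The share called among all probe sets as dim was not computed, so this count has no background beside it.

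**Figure D2:**
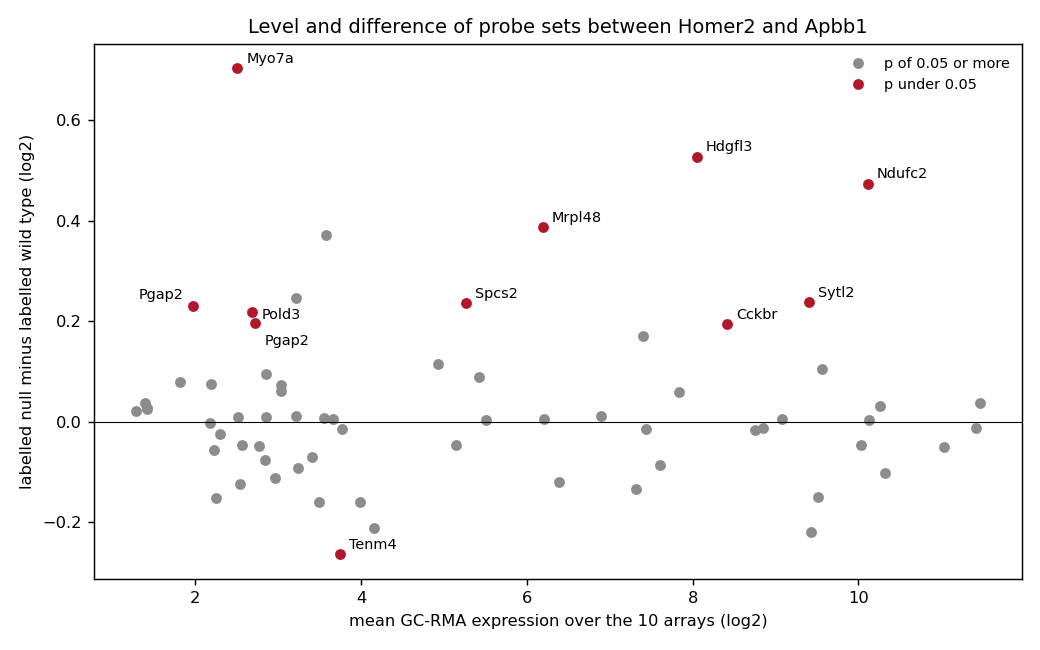
Labelled null minus labelled wild type expression (log2 difference, y axis) against mean GC-RMA expression over the 10 arrays (log2, x axis), 1 point for each of the 67 probe sets. The 11 named in red had an unadjusted limma p under 0.05, 6 of them at a mean of 5 or more, and the largest difference (*Myo7a*, 0.70) belongs to a dim probe set.

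Within the stretch, the probe sets of one gene were seldom all called. The same shares were not computed for other genes of the array, so the counts here do not set the stretch apart. Of the 10 genes with a call, 7 had a second probe set, and in 0 of these 7 were all probe sets called. In 6 of the 7 the brightest probe set was not the one called, the exception being *Cckbr*. The 8 other probe sets of these 7 genes had differences of -0.16 to 0.25, with a median of 0.03. The called ones had a median of 0.23, but they were picked for their difference, so a larger median among them follows from the choice. In 5 of the 7 genes all probe sets had the same sign, the exceptions being *Hdgfl3* and *Pgap2*.

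Unequal shifts within a gene were tested as the difference between 2 probe sets on each array, the brighter minus the other. The fit covered 12821 such pairs of 4956 genes. Of 28 pairs in 22 genes of the stretch, 3 differed between the groups at an unadjusted limma p under 0.05, or 10.7%, against 3.31% of all pairs. These were 2 pairs of *Hdgfl3*, which share probe set 1450924_at, and 1 pair of *Ndufc2*. After adjustment over all pairs 0 were called (adjusted p = 0.991). Without labelled null replicate 5 there were 6 such pairs (21.4%, against 7.64% of all pairs), and without labelled wild type replicate 1 there were 7 (25%, against 6.10%).

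In *Hdgfl3*, 1450924_at minus 1423252_at was 0.71, 0.96, 0.87, 0.94 and 0.91 on labelled null arrays and 0.02, 0.50, 0.55, 0.39 and 0.23 on labelled wild type arrays. The groups did not overlap, and they differed by 0.54 ± 0.11 (SE; unadjusted limma p = 0.000306, exact permutation p = 0.00794). The pair of 1435977_at and 1450924_at differed by -0.54 ± 0.13 (limma p = 0.00126, exact permutation p = 0.00794). The probe sets 1435977_at and 1423252_at were by themselves close to level between the groups (-0.02 ± 0.06 and -0.01 ± 0.06), with 95% confidence intervals of -0.16 to 0.13 and -0.15 to 0.12. A difference of the size seen in 1450924_at thus lay outside both intervals.

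In *Ndufc2*, 1455036_s_at read 11.42, 11.44, 11.59, 11.26 and 11.73 on labelled null arrays and 11.20, 11.46, 11.57, 11.47 and 11.54 on labelled wild type arrays. These groups overlapped almost wholly, with a difference of 0.04 ± 0.10 and a 95% confidence interval of -0.17 to 0.25. The pair of this probe set and 1416366_at differed by -0.44 ± 0.12 (SE; unadjusted limma p = 0.00494, exact permutation p = 0.0238). The suffix _s_at marks probes that fit more than one transcript of the design, and _x_at probes that may cross-hybridize, so the signal of such a set can hold other transcripts.

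In the remaining genes with a call the pairs did not pass the threshold. In *Mrpl48* the brighter set, 1437997_x_at, differed by 0.17 ± 0.15, in the direction of the called one, and the pair by -0.22 with a 95% confidence interval of -0.50 to 0.07. In *Spcs2* the brighter set, 1423215_at, differed by 0.03 ± 0.12 and the pair by -0.20 (limma p = 0.0544, exact permutation p = 0.0794). In *Pgap2* the 2 called sets rose by 0.20 and 0.23, while the brightest, 1424616_s_at, differed by -0.16 ± 0.18. In *Cckbr* the dim set 1460663_at differed by 0.25 ± 0.13 (limma p = 0.0943, exact permutation p = 0.151), close to the 0.19 of the called one. *Sytl2*, *Myo7a* and *Tenm4* had a single probe set each, so no such comparison could be made. Whether a strain variant under the probes, a change in transcript ends or splicing, or a change in RNA amount gave the unequal shifts was not tested, and probe sequences were not analysed here.

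**Figure D3:**
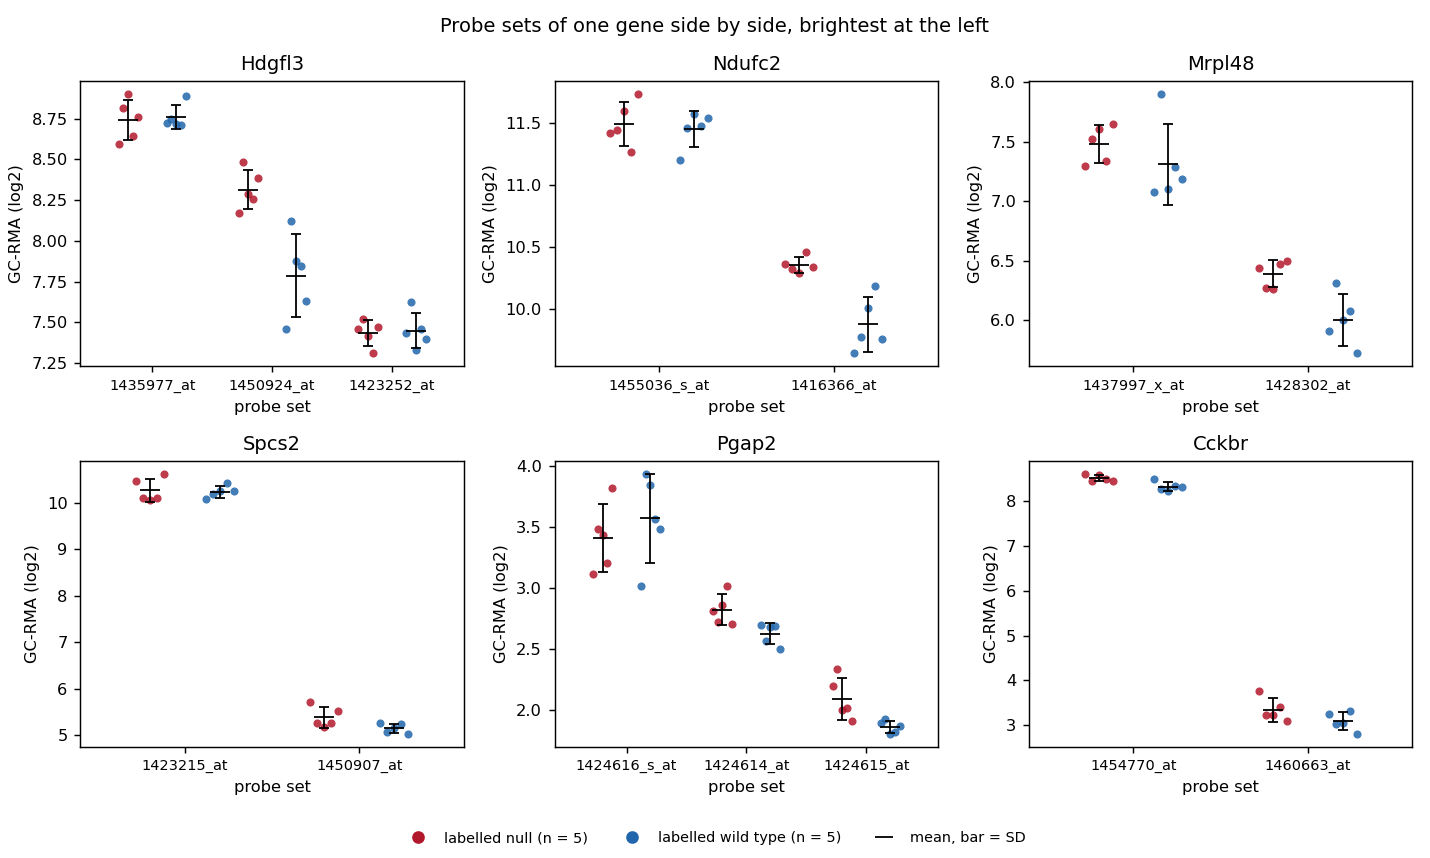
GC-RMA expression (log2, y axis, a separate range for each gene) of all probe sets of 6 genes, brightest at the left, with 1 point per mouse, the mean and the SD, labelled null left of labelled wild type (n = 5 each). In *Hdgfl3*, *Ndufc2* and *Pgap2* 1 probe set separates the groups while the others do not, and in *Cckbr* both labelled null means lie above the labelled wild type means.

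Along the chromosome the called genes were scattered rather than gathered at one end. *Homer2* was the 531st and *Apbb1* the 648th of 958 measured genes of chromosome 7, with *Hdgfl3* at rank 535, *Sytl2* at 558, *Tenm4* at 567, *Ndufc2* at 569, *Myo7a* at 575, *Spcs2* at 590, *Pold3* at 592, *Mrpl48* at 599, *Pgap2* at 622 and *Cckbr* at 645. Between neighbouring calls lay genes without one, such as *Clns1a* at rank 574 between *Ndufc2* and *Myo7a*. Both ends differed in the same direction, *Homer2* by 0.41 ± 0.07 and *Apbb1* by 0.26 ± 0.06 in 1423893_x_at, with no overlap of the groups, and by 0.11 ± 0.10 in 1423892_at. *Homer2*, for a scaffold protein of the synapse, read 8.12, 8.08, 8.18, 7.996 and 7.93 on labelled null arrays and 7.86, 7.51, 7.71, 7.59 and 7.60 on labelled wild type arrays.

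The stretch also holds 74 measured genes that were not on the list. Of their 112 probe sets, a p under 0.05 was found for 6 (5.36%), of which 4 were higher and 2 lower, and in 4 (3.57%) the groups did not overlap. At a limma p under 0.004, 0 of the 112 were called, against 0.278% of all probe sets. Of the 22 with a mean of 5 or more, 1 had a p under 0.05 (4.55%, against 6.44% of all probe sets as bright). Over the listed and unlisted genes together, the ends left out, 17 of 179 probe sets had a p under 0.05 (9.50%), of which 14 were higher and 3 lower. Elsewhere on chromosome 7 the share was 3.59%, and on other chromosomes 3.63%. *Thrsp*, a lipogenic gene at rank 570 next to *Ndufc2*, went the other way, with -0.81 ± 0.28 in 1424737_at (limma p = 0.0139, exact permutation p = 0.0476). That probe set read 7.17, 7.28, 7.53, 7.10 and 8.41 on labelled null arrays and 8.22, 7.70, 8.89, 8.16 and 8.59 on labelled wild type arrays. The dimmer probe set of *Thrsp*, 1422973_a_at, was not called, with -0.34 ± 0.18 (SE; limma p = 0.0892, exact permutation p = 0.159).

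**Figure D4:**
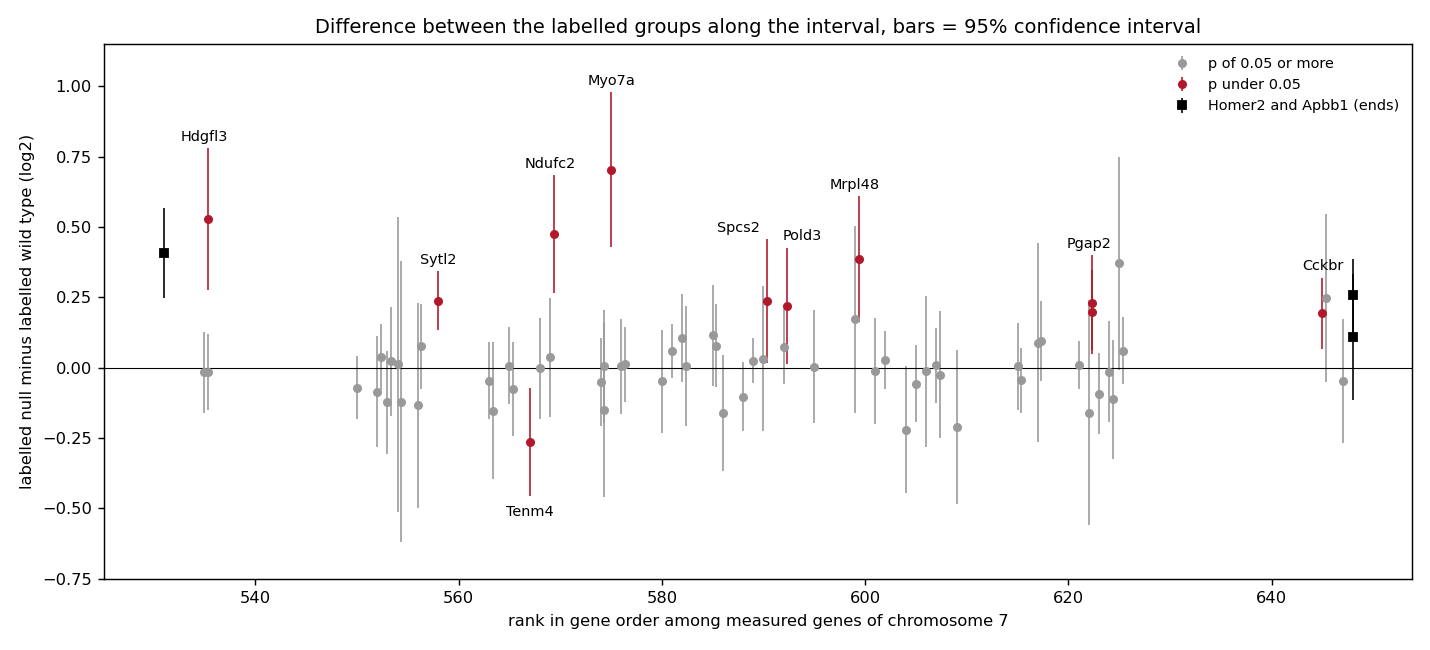
Labelled null minus labelled wild type expression (log2 difference, y axis) of the 67 probe sets against rank in gene order among the measured genes of chromosome 7 (x axis), with 95% confidence intervals. Black squares are the probe sets of *Homer2* and *Apbb1* at the ends, and the 11 red points, at an unadjusted limma p under 0.05, are spread from rank 535 to 645 with grey points between them.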

How the data were processed

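Cortical RNA was labelled with biotin and hybridised to 1 array per mouse. The values are log2 expression values, deposited by the authors after GC-RMA, a method that models background from the GC content of probes, scales the arrays to each other and combines the probes of a set. No version of it was stated. Arrays were grouped by their labels alone. Tests covered 22626 probe sets, without 64 controls. The array annotation gave 1 gene for 20380 of them, and RefSeq (GRCm38.p6) supplied gene order and promoter windows. The genes and lists were chosen with earlier results of these data known.

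For each probe set the labelled null arrays were set against the labelled wild type arrays with limma 3.58.1 in R 4.3.3 (lmFit, eBayes), with Benjamini-Hochberg adjustment over the whole table. The same fit was run over within-array differences of probe set pairs, and both were tested on simulated data. Exact two-sided permutation tests over the 10 arrays were used for single probe sets. Full values are given for genes with a probe set or pair at an unadjusted p under 0.05 or with groups that do not overlap, and for the 3 brightest. *Rrm1* and *Stard10*, just outside that threshold, *Prss23* and *Thrsp* were chosen after their values were seen. The mice were littermate pairs, but which arrays form a pair was not stated, so no pairing entered the fit. Alternatives were a replicate block, centring, quantile normalization, a minimum mean of 5, a floor of 4, an intensity trend with robust prior, weights for arrays, the methods' t-test, 1 probe set per gene (the brightest), and omission of single arrays. Small differences cannot be resolved with so few arrays per group.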

Additional observations from a re-analysis of the deposited data

Results flagged for a closer look

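In 3 of 46 groups of 5 arrays checked, covering the probe sets of the 12 genes given in full, a single array lay far from the other 4 by Dixon's criterion for the gap over the range. Such a criterion picks out about 5% of groups by chance. *Hdgfl3* 1435977_at read 8.891 on labelled wild type replicate 5, against 8.711 to 8.75 on the other labelled wild type arrays. *Pold3* 1426839_at read 2.94 on labelled null replicate 2, against 3.071 to 3.12 on the other labelled null arrays. *Mrpl48* 1437997_x_at read 7.903 on labelled wild type replicate 2, against 7.076 to 7.289 on the other labelled wild type arrays. None of these 3 probe sets was called at an unadjusted limma p under 0.05.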

How the results depend on the processing

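At an unadjusted p under 0.05 the count of 11 of 67 probe sets (16.4%, against 3.67% of all) became 4 of 42 (3 higher, 1 lower; 9.52% against 3.94%) with only the brightest probe set of each gene, 6 of 30 (20% against 4.52%) with a mean of at least 5, and 6 of 35 (17.1% against 4.59%) with a floor of 4. At a p under 0.004 the count of 5 (7.46% against 0.278%) became 2 of 30 (6.67% against 0.332%) with a mean of at least 5, 3 (4.48% against 0.217%) with the trend and robust prior, and 8 (11.9% against 0.473%) with array weights. The count of 5 probe sets with groups apart became 3 of 30 (10% against 0.830%) with a mean of at least 5. It ranged from 5 to 9 when 1 array was left out (7.46% to 13.4%, against 0.915% to 2.25% of all probe sets). The 3 pairs of 28 became 5 (17.9% against 5.31%) with array weights. Their count ranged from 3 to 7 when 1 array was left out (10.7% to 25%, against 2.32% to 7.64% of all pairs). The methods' t-test gave 9 probe sets with a p under 0.05 (13.4% against 3.39%) and 4 with a p under 0.004 (5.97% against 0.221%). Like limma, it gave 0 after Benjamini-Hochberg adjustment. The cause of these changes was not tested, beyond the fewer probe sets entering with the filter and the brightest set.

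With the replicate number as a block, 14 probe sets had a p under 0.05 (20.9%, against 4.76% of all), 4 a p under 0.004 (5.97% against 0.398%), and 6 pairs differed (21.4% against 5.41%). Arrays of the same number had deviations that correlated at 0.0474 to 0.457, over 0.1 in 1 of 5, so the numbers were not shown to pair the mice. Of 189 single values under an alternative, 171 kept their call, 18 lost it (9 of *Pold3*, 8 of *Spcs2*, 1 of *Tenm4*) and 0 reversed. All 54 of the pair differences kept theirs. Dim probe sets limit what can be seen, since 20 of the 42 genes had no probe set with a mean of 4 or more.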
